A study of Mus musculus with 14 samples.

Results

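Androgens and glucocorticoids are made and broken down by small families of reductases and dehydrogenases, and 9 mouse genes of these families were followed across liver and kidney: Srd5a1, Srd5a2, Akr1d1, Hsd3b2, Hsd3b3, Hsd3b5, Hsd17b2, Hsd11b1 and Akr1c6. They were picked by gene symbol, and Srd5a1 was picked because it was higher in kidney after high salt, so its kidney difference between the diets is given as a description without a test. All 9 were in the liver count table of 19660 genes, and 8 were in the kidney count table of 20203 genes, out of 22263 genes in either table. Hsd3b5 was the member without a row in the kidney counts.

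The animals were male mice of 12 weeks bearing a transgene of human angiotensinogen, haplotype -6A, and every group shared this genotype. The groups were liver on the normal diet (4 libraries, called 1 to 4), liver on high salt (4 libraries, called HS5 to HS8), kidney on the normal diet (3 libraries, 1 to 3) and kidney on high salt (3 libraries, 1 to 3). The labels give neither the dose nor the length of the salt diet, no group without the transgene was analysed here, and nothing says which libraries came from separate animals. The p-values therefore measure the spread between these libraries, which may be technical in part.

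5α-reductases turn testosterone into dihydrotestosterone, the stronger androgen, while the 5β-reductase Akr1d1 starts the clearance of steroids and takes part in bile acid synthesis. The 3β-hydroxysteroid dehydrogenases and the 17β-hydroxysteroid dehydrogenases make or inactivate sex steroids, and Hsd11b1 regenerates active glucocorticoid from its inert form. In rodents the liver expresses many of these enzymes differently in males and females, and the male kidney responds strongly to androgen.

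Liver libraries held 37267771 to 51487386 counts and kidney libraries 16046069 to 22004915. The share of mitochondrial genome transcripts ran from 2.06% to 29.6% in liver and from 23.5% to 41.2% in kidney. Normal diet liver libraries 1 and 2, with the lowest shares (2.30% and 2.06%), stood apart from the other 6 on the first principal component (45.9% of the variance). In kidney the first component (62.1% of the variance) set library 1 of the normal diet apart together with libraries 1 and 3 of high salt, across the diets. Liver libraries HS5 and HS6 were closer to each other than any other pair, with a chi-square per gene of 1.59 against 9.85 to 62.7 in the 11 other liver pairs within a diet. The tissue labels matched the markers. All 14 hepatocyte markers were in the liver table, with a summed level of 100980 to 135960 CPM (counts per 1000000, with TMM-scaled library totals) in liver and 69.7 to 141.0 CPM in kidney. Normal diet liver library 4 had a summed acute phase level of 68379 CPM, against 3690 to 8845 CPM in the other 7 liver libraries.

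The genes lie on 6 chromosomes of the mm10 (GRCm38) build. Srd5a1 is at chr13:69573449-69611442 on the minus strand and Akr1c6 at chr13:4434306-4457877 on the plus strand. Srd5a2 is at chr17:74016955-74047916 (minus), Hsd17b2 at chr8:117701904-117759027 (plus), Hsd11b1 at chr1:193221634-193264075 (minus) and Akr1d1 at chr6:37530173-37568815 (plus). The 3 Hsd3b members are neighbours on the minus strand of chromosome 3. Hsd3b5 (98618634 to 98630252) is 79002 bases from Hsd3b2 (98709255 to 98724543), which is 16979 bases from Hsd3b3 (98741523 to 98763127).

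The promoters of 4 members are shown because each pair differs in how its RNA is divided between liver and kidney: the 5α-reductases Srd5a1 and Srd5a2, and the neighbours Hsd3b2 and Hsd3b3. Each is the RefSeq (GRCm38.p6) stretch of 300 bases, from 250 before to 50 after a RefSeq gene start, written 5′ to 3′ along the gene, with CG dinucleotides in capitals. Hsd3b3 has 2 entries and the first is shown.
Srd5a1, chr13:69611414-69611713, minus strand: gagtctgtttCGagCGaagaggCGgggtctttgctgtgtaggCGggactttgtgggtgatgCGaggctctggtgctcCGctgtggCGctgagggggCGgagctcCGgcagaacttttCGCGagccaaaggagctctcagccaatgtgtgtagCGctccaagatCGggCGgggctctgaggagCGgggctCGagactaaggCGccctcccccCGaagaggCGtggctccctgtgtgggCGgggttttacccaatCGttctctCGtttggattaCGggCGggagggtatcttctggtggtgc
Srd5a2, chr17:74047811-74048110, minus strand: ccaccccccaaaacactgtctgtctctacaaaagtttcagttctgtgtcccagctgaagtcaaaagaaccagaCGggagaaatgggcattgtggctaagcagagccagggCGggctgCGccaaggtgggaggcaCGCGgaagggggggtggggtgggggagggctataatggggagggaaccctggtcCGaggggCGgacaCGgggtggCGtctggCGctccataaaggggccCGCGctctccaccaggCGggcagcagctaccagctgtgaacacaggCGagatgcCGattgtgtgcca
Hsd3b2, chr3:98724494-98724793, minus strand: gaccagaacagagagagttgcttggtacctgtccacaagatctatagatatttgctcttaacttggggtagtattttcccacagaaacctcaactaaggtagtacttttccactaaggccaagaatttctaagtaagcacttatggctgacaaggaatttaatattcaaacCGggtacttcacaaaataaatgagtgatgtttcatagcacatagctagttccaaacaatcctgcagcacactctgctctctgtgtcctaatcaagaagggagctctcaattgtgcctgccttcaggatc
Hsd3b3, chr3:98763079-98763378, minus strand: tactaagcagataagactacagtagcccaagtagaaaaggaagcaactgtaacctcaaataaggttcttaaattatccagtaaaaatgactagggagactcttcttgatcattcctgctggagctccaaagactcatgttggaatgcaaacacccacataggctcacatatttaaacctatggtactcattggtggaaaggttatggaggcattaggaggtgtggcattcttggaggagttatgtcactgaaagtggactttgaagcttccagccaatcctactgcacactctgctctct

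The Srd5a1 promoter held 24 CG dinucleotides and that of Srd5a2 held 15, while Hsd3b2 had 1 and Hsd3b3 had 0. Of the 8 members with a promoter in RefSeq, 5 had 0 or 1 CG, and so did 14.1% of all 32851 promoters of this length. The RefSeq starts of Hsd3b5 and Hsd11b1 lie 15282 and 21715 bases from their starts in GENCODE, which gave the gene positions above. What is counted for these genes therefore depends on the annotation. 15 or more CG were found in 34.6% of all promoters. The letters GGGCGG, a motif read by Sp1, matched 4 times in the Srd5a1 promoter and 2 times in that of Srd5a2 on either strand, and in none of the other 6. They were in 35.7% of all promoters. TTCNNNGAA, a motif bound by STAT factors, was in none of the 8 and in 8.30% of all promoters. TGTTCT, a half-site of the glucocorticoid receptor, matched 1 time, in Hsd3b2, and in 19.0% of all promoters. TATAAA was in Akr1c6 alone among the members and in 13.6% of all promoters. These are matches of letters on both strands and do not show binding.

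Liver and kidney on the normal diet held different sets of these enzymes. Of the 7 members tested besides Srd5a1, 4 were higher in liver and 1, Srd5a2, was higher in kidney (edgeR quasi-likelihood test, Benjamini-Hochberg adjusted p under 0.05 over 16633 genes). That is 5 of 7, where 65.1% of all genes were called (32.9% higher in liver, 32.2% lower), so the share itself is near the background. The same 5 did not overlap between the organs, as 59.3% of all genes. The median log2 fold change of liver over kidney was 2.06 over these 7 and 0.02 over all genes tested. Scaling within each tissue instead of jointly moved the median of all genes to -0.49 and the share of higher calls from 50.5% to 34.0%. Differences relative to the median of all genes were nearly the same under both scalings, for Srd5a2 -3.72 and -3.72.

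The 5α-reductases were divided between the organs in opposite ways. Srd5a1, the type 1 enzyme, was at 81.8, 96.7, 84.6 and 85.5 CPM in normal diet liver libraries 1 to 4, and at 10.7, 10.5 and 8.96 CPM in the normal diet kidney libraries, the same ones its kidney difference starts from. The log2 fold change of 3.66 ± 0.23 (SE, edgeR) is therefore given without a test, and scaling within each tissue made it 3.14. Srd5a2, the type 2 enzyme known from the prostate, was at 0.571, 0.218, 0.472 and 0.361 CPM in liver and at 14.5, 4.63 and 3.97 CPM in kidney. Its liver values rested on 8 to 24 counts per library, and the groups did not overlap (log2 fold change -3.696 ± 0.485, adjusted p = 8.5e-06, edgeR). The kidney level of Srd5a2 was uneven, with library 1 at more than 3 times the others, and without that library the log2 fold change was -2.84.

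Akr1d1 was shared between the organs. Its levels were 191, 175, 119 and 34.3 CPM in normal diet liver libraries 1 to 4, and 68.7, 139 and 150 CPM in kidney. The ranges overlapped through liver library 4 and kidney library 1, and the log2 fold change of 0.69 ± 0.46 did not pass the test (adjusted p = 0.197, edgeR). Without liver library 4, whose acute phase genes were high, it was 1.01 and passed (adjusted p = 0.0131).

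The Hsd3b members took different shares in each organ. Hsd3b5, a 3-ketosteroid reductase typical of male mouse liver, was at 620, 488, 198 and 143 CPM in the normal diet liver libraries. In kidney, the authors' deposited normalized values for it were between 0 and 1.90. Hsd3b3, a dehydrogenase and isomerase, was at 271, 301, 136 and 109 CPM in liver and at 29.5, 53.7 and 49.0 CPM in kidney, with no overlap (log2 fold change 2.78 ± 0.38, adjusted p = 1.3e-05, edgeR). Hsd3b2 was at 68.3, 68.3, 105 and 27.2 CPM in liver and at 228, 103 and 106 CPM in kidney. Liver library 3 overlapped the kidney range by a small margin, and the log2 fold change of -0.57 ± 0.36 did not pass (adjusted p = 0.176, edgeR). With scaling within each tissue it was -1.09 and passed (adjusted p = 0.014), but the median of all genes moved with it, and relative to that median it was -0.59 jointly and -0.60 within tissues.

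Hsd3b4, a reductase of the same cluster that is not among the 9, had 245, 273 and 350 CPM in normal diet kidney and at most 0.109 CPM in normal diet liver. Over the Hsd3b1 to Hsd3b5 genes that were in each table, Hsd3b2 made up 7.12% to 23.9% of the summed CPM of normal diet liver and 21.0% to 45.3% of that of kidney. Hsd3b3 made up 28.2% to 39.0% in liver and 5.86% to 12.5% in kidney. Neighbouring genes of this cluster share sequence, which bears on these splits. Of the 50-base windows of Hsd3b2, 25.1% also occur in other genes, 10.96% in Hsd3b3, and its counts and those of Hsd3b3 were fractional in all 14 libraries. In Hsd3b5 21.2% of the windows are shared, mostly with Gm10681 (18.2%), so the 3 genes' values are uncertain to that extent. For Srd5a1, 15.1% of the windows are shared with Gm17108, an overlapping gene model on the same strand.

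Both members that act on the 17β position were higher in liver on the normal diet. In the list of 17β-hydroxysteroid dehydrogenases, 6 of 8 tested were higher in liver and 0 in kidney, where 32.9% and 32.2% of all genes were. Hsd17b2, which oxidises testosterone and oestradiol to weaker forms, was at 185, 148, 104 and 87.4 CPM in liver and at 8.19, 9.14 and 10.1 CPM in kidney. There was no overlap, and liver exceeded kidney by 4.40 ± 0.33 on the log2 scale (adjusted p = 2.6e-08, edgeR). None of its windows is shared and all its counts were whole. Akr1c6, an aldo-keto reductase that acts as a 17β-hydroxysteroid dehydrogenase, was at 2108, 2018, 1168 and 938 CPM in liver and at 0.30, 2.46 and 0.775 CPM in kidney. Liver exceeded kidney by 10.95 ± 0.94 on the log2 scale (adjusted p = 9.5e-08, edgeR), and the kidney values rested on 6 to 42 counts.

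The highest Akr1c6 in kidney went with the highest level of a liver marker. Kidney library 2 of the normal diet had both the highest Akr1c6 (2.46 CPM) and the highest Alb (35.7 CPM), which is 0.0603% of the mean Alb level of liver. That share of the liver level of Akr1c6 would be 0.824 CPM. In high salt library 2, Akr1c6 was at 1.01 CPM with Alb at 4.79 CPM, a share that would give 0.11 CPM. The part of liver RNA in these low values was not tested further.

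Akr1c21, a kidney relative of Akr1c6 that was not among the 9, was at 566, 1480 and 1575 CPM in normal diet kidney and at 0.0481 to 0.245 CPM in normal diet liver. Of the 14 tested genes of the list of 5α-, 5β- and ketosteroid reductases, 8 were higher in liver and 3 higher in kidney, where 32.9% and 32.2% of all genes were. The 8 include Srd5a1, for which no test is read, so this count is a description only. Akr1c18, a 20α-hydroxysteroid dehydrogenase, was another of those higher in kidney (11.5 CPM against 0.0274 in liver, means), and Rdh9 was among those higher in liver (92.5 against 0.273 CPM).

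**Figure D1:**
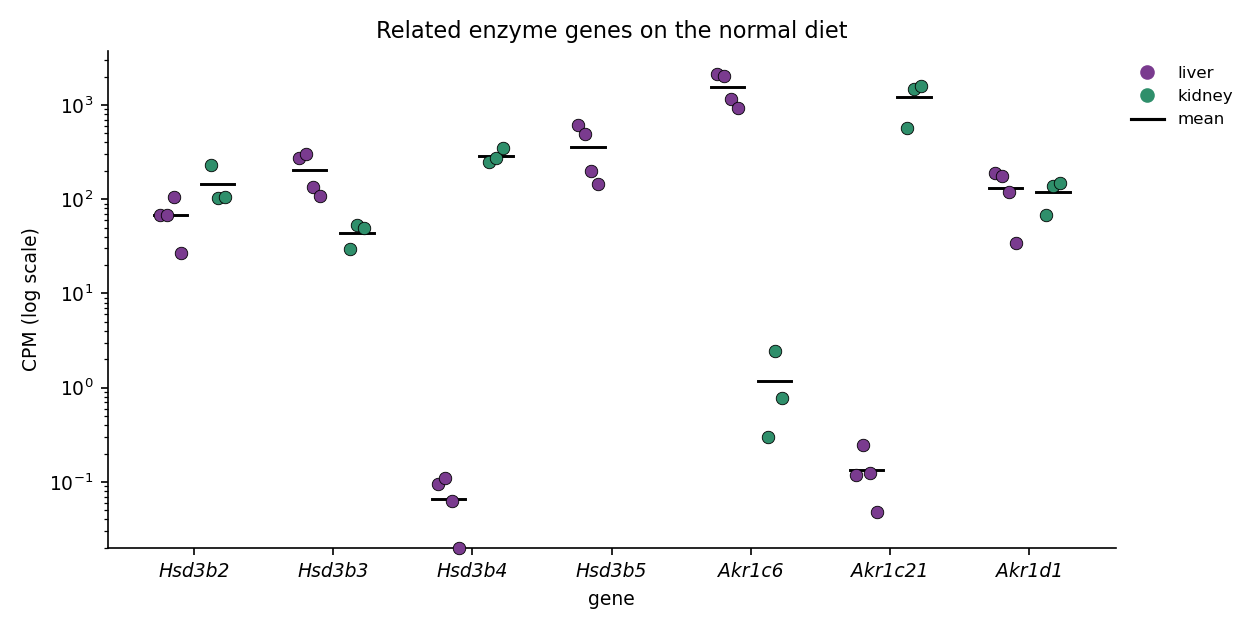
Each point is 1 normal diet library (4 liver, 3 kidney), the y axis gives CPM on a log scale and the lines are means; Hsd3b5 has no kidney counts and a value of 0 is drawn on the x axis. Akr1c6 and Hsd3b5 are liver genes, Akr1c21 and Hsd3b4 kidney genes, and the liver and kidney points of Akr1d1 and Hsd3b2 overlap.

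Hsd11b1, which with H6pd regenerates corticosterone in the endoplasmic reticulum, was at 697, 824, 514 and 304 CPM in liver and at 170, 202 and 248 CPM in kidney. The groups did not overlap and the log2 fold change was 2.06 ± 0.40 (adjusted p = 0.00037, edgeR). H6pd, which supplies its cofactor, was also higher in liver (log2 fold change 2.36) and so was the glucose-6-phosphate carrier Slc37a4 (2.57). Hsd11b2, which inactivates corticosterone and so shields the mineralocorticoid receptor, was in the kidney table alone, at 25.0 to 56.8 CPM.

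Within an organ the members were ordered per length, taken as all annotated exon bases of a gene and not the length of 1 transcript. These were 6396 bases for Hsd3b3 and 1549 for Hsd3b5, so the order depends on the annotation. In normal diet liver, Akr1c6 led with 766 CPM per kilobase of exon (lowest library 461), above Hsd3b5 at 234 (highest library 400). Hsd3b5, Hsd11b1 (137.6), Hsd17b2 (68.2), Akr1d1 (45.0), Hsd3b3 (31.9), Srd5a1 (29.96) and Hsd3b2 (18.2) followed in that order on this scale, and each overlapped its next neighbour. Srd5a2 was last at 0.252 and overlapped none. In normal diet kidney, Hsd11b1 (48.6), Akr1d1 (41.2) and Hsd3b2 (39.4 CPM per kilobase) formed an overlapping upper group. Hsd3b3 (6.89), Srd5a2 (4.80) and Hsd17b2 (4.76) overlapped in a lower one. Srd5a1 (3.45, libraries 3.08 to 3.68) lay within the range of Srd5a2 (2.47 to 9.06) and below the other two, and Akr1c6 was last at 0.579.

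The first diet question was whether high salt changed these enzymes in liver. Of the 9 members, 0 passed the test (edgeR adjusted p under 0.05), where 1.0% of the 15130 genes tested did. At an unadjusted p under 0.05 there was 1, Srd5a2, where 21.2% of all genes were under it. DESeq2 called 1 member, Srd5a2, and 1094 of 19660 genes. The fold changes were below 0 for 8 of 9 members, against 52.0% of all genes. The median log2 fold change was -0.37 over the members and -0.02 over all genes. Without normal diet libraries 1 and 2 the sign turned for Hsd3b3, Hsd3b5, Hsd11b1, Akr1d1 and Akr1c6. The 14 hepatocyte markers had a median of -0.37, with 12 of 14 below 0. Their summed level went the other way, from 100980 to 117360 CPM on the normal diet and from 116960 to 135960 CPM on high salt. Alb was at 32441 to 50637 CPM on the normal diet and at 67824 to 85226 CPM on high salt. The part of hepatocyte content in the members' values was not tested. In 1 of 9 members, Srd5a2, the diets did not overlap, where 12.5% of all genes had no overlap.

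Srd5a2 was at 0.571, 0.218, 0.472 and 0.361 CPM on the normal diet and at 0.958, 1.06, 1.02 and 0.618 CPM on high salt (HS5 to HS8). All 4 high salt libraries were above all 4 others, with HS8 just above the highest of them, on 35 to 54 counts against 8 to 24. The log2 fold change was 1.16 ± 0.35 and did not pass with edgeR (adjusted p = 0.129), while DESeq2 gave an adjusted p of 0.0454. It lay between 0.96 and 1.38 when each library was left out in turn. Kidney markers were also uneven among these libraries. Kap, the most abundant kidney tubule marker, was at 0 to 4.18 CPM in normal diet liver and at 1.54 to 37.4 CPM in high salt liver. The highest of these is 0.09% of the kidney level, and that share of kidney Srd5a2 would be 0.00791 CPM. Of the 10 endothelial, stellate and fibroblast markers, 10 had fold changes above 0 in high salt liver (summed 121 to 200 CPM on the normal diet, 191 to 236 on high salt), and their part in the Srd5a2 values was not tested. In whole tissue, a change in the number of cells of a type and in RNA per cell cannot be told apart.

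Liver Srd5a1 differed between the diets by less than the spread of its libraries. It was at 81.8, 96.7, 84.6 and 85.5 CPM on the normal diet and at 95.1, 94.5, 66.2 and 74.2 CPM on high salt. The diets overlapped, and the log2 fold change of -0.08 had a 95% interval of -0.44 to 0.28 (adjusted p = 0.802, edgeR). It had the lowest spread of the members on the normal diet, with a coefficient of variation of 7.51%.

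Akr1d1, Hsd3b5, Hsd3b3, Hsd17b2, Akr1c6 and Hsd11b1 shared a pattern in liver. Normal diet libraries 1 and 2, the pair that stood apart, were above libraries 3 and 4 of the same diet. Hsd3b5 was at 620 and 488 CPM in that pair, at 198 and 143 CPM in libraries 3 and 4, and at 223, 217, 239 and 242 CPM in HS5 to HS8. The high salt libraries were tightly grouped and lay between the 2 pairs of the normal diet. The log2 fold change of -0.65 ± 0.41 did not pass (adjusted p = 0.376, edgeR), and without libraries 1 and 2 it was 0.43. The liver profiles most like that of Hsd3b5, by root mean square difference of centred log2 CPM over 8 libraries among 12184 genes, were those of the gene models Gm16439 (0.159), Tcea1-ps1 (0.159) and Gm6767 (0.161), where the median gene was at 0.692.

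Akr1d1 was at 191 and 175 CPM in libraries 1 and 2, at 119 and 34.3 CPM in libraries 3 and 4, and at 85.3, 83.8, 87.1 and 84.1 CPM on high salt. Library 4, the one with high acute phase genes, was far below every other liver library. The log2 fold change of -0.61 ± 0.41 did not pass (adjusted p = 0.412, edgeR). Without library 4 it was -0.94 and passed (adjusted p = 0.04), and without libraries 1 and 2 it was 0.14, so the direction rests on which libraries enter.

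Akr1c6 was at 2108, 2018, 1168 and 938 CPM on the normal diet and at 933, 881, 1735 and 1156 CPM on high salt. HS7 was near the upper pair and the diets overlapped (log2 fold change -0.41 ± 0.33, adjusted p = 0.492, edgeR; 0.16 without libraries 1 and 2). Hsd3b3 was at 271, 301, 136 and 109 CPM, and at 178, 171, 141 and 140 CPM on high salt. Its high salt values lay within the normal diet range (log2 fold change -0.37 ± 0.31, adjusted p = 0.503, edgeR; 0.36 without libraries 1 and 2).

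Hsd17b2 was at 185, 148, 104 and 87.4 CPM, and at 87.9, 82.1, 103 and 92.5 CPM on high salt. The high salt values overlapped those of normal diet libraries 3 and 4, and the log2 fold change of -0.52 ± 0.23 did not pass (adjusted p = 0.236, edgeR). Without libraries 1 and 2 it was -0.06. Hsd3b2 departed from this pattern, with 68.3, 68.3, 105 and 27.2 CPM on the normal diet and 54.9, 52.4, 52.8 and 54.0 CPM on high salt. Its highest and lowest values were both on the normal diet (log2 fold change -0.33 ± 0.32, adjusted p = 0.57, edgeR).

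Hsd11b1 was at 697, 824, 514 and 304 CPM on the normal diet and at 489, 487, 765 and 491 CPM on high salt. HS7 stood above the 3 others of its diet, as it did for Akr1c6. The log2 fold change was -0.07 with a 95% interval of -0.75 to 0.62 (adjusted p = 0.921, edgeR).

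The spread of the members was unequal between the diets. The coefficient of variation of Akr1d1 was 54.5% with normal food and 1.77% with high salt, that of Hsd3b5 63.2% and 5.35%, and that of Hsd3b2 47.4% and 2.18%. The high salt spread includes HS5 and HS6, the pair that was closest to each other.

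**Figure D2:**
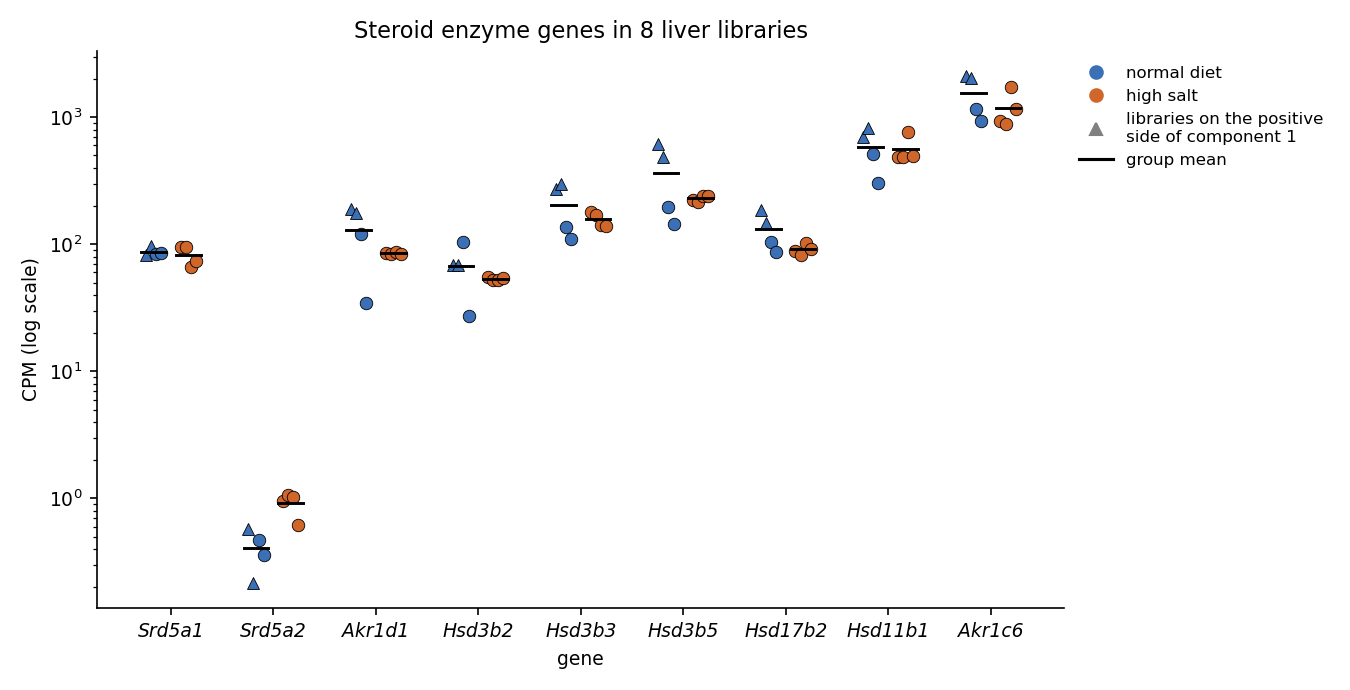
CPM (log scale) of the 9 genes in the 4 normal diet and 4 high salt liver libraries, 1 point per library with group means; triangles are normal diet libraries 1 and 2. For Hsd3b5 the triangles lie at 620 and 488 CPM and the high salt points between 217 and 242 CPM, while Srd5a2 is the gene whose diets do not overlap.

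Among the other listed genes of steroid handling, Cyp7b1, which hydroxylates oxysterols and dehydroepiandrosterone, fell in liver. It was at 483, 533, 441 and 444 CPM on the normal diet and at 148, 146, 190 and 144 CPM on high salt, with no overlap. Its log2 fold change was -1.60 ± 0.17 (adjusted p = 0.0052, edgeR), and it passed in all 8 fits that left out 1 library. In its list of hydroxylation, sulfation and desulfation genes, 1 of 6 tested was lower and 0 higher, where 0.41% and 0.595% of all genes were. Of these 6, 5 had fold changes below 0, against 52.0% of all genes, and the median log2 fold change was -0.95. In the lists of ketosteroid reductases (13 tested), 3β-hydroxysteroid dehydrogenases (5), 17β-hydroxysteroid dehydrogenases (8), glucocorticoid conversion (3), steroid-synthesising cytochromes with their electron donors (7) and steroid receptors (4), 0 passed in either direction.

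Several genes of these lists had larger fold changes that missed the threshold. Hsd3b7, of bile acid synthesis, averaged 470 ± 175 CPM without high salt and 263 ± 38.3 CPM with it (4 libraries each, SD; log2 fold change -0.83, adjusted p = 0.144 with edgeR). Fdx1, the ferredoxin of mitochondrial cytochromes P450, was at 95.6 CPM and 58.6 CPM (means; -0.71, adjusted p = 0.128). Hsd17b10 (-0.79), Nsdhl (-0.56) and Por (-0.46) were under an unadjusted p of 0.05 as well, as 21.2% of all genes were. Without normal diet libraries 1 and 2, Hsd3b7 was at -0.29 and Hsd17b10 at -0.21. Without normal diet library 3, Hsd3b7 was at -1.03 and passed (adjusted p = 0.0457, edgeR). Fdx1 passed with DESeq2 (-0.72, adjusted p = 0.0439).

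Hsd3b5 and Srd5a2 also belong to a list of 19 genes known to be higher in male liver, and Srd5a1 to one of genes known to be higher in female liver. Both lists were written with earlier results of these data known, so their counts beside those of all genes are a description and not a test. In the male list 3 of 19 fell and 0 rose, where 0.41% of all genes fell and 0.595% rose. Of the 19, 17 had fold changes below 0, and the median log2 fold change was -0.51. The 3 were Cyp7b1, Selenbp2 (-2.31, adjusted p = 0.013) and Moxd1 (-7.19, adjusted p = 0.047, edgeR). Selenbp2 lost its call without HS5, without HS6 and without HS8 (adjusted p up to 0.0664, edgeR), and Moxd1 kept its call in 2 of the 8 fits that left out 1 library. Moxd1 was at 45.2, 14.3, 0.283 and 13.0 CPM on the normal diet and at 0 to 0.371 CPM on high salt, and its diets overlapped. In the female list 0 of 7 tested passed, and the median was 0.63. Acot3, an acyl-CoA thioesterase of this list, was at 0.926 to 5.69 CPM on the normal diet and at 10.3 to 13.3 CPM on high salt, with no overlap. Its log2 fold change of 2.10 ± 0.52 did not pass (adjusted p = 0.0853, edgeR). It passed with DESeq2 (adjusted p = 0.00168), in the fit of 14 libraries (adjusted p = 0.027) and, at 2.75, without normal diet library 3 (adjusted p = 0.024). Cyp2a4 of this list was at 254 CPM in HS8 and at no more than 1.29 CPM in the other high salt liver libraries.

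In kidney, Srd5a1 was at 10.7, 10.5 and 8.96 CPM on the normal diet and at 23.2, 24.7 and 17.3 CPM on high salt. All 3 high salt libraries were above all 3 others, which is what chose the gene, so nothing is read from it. The mean went from 10.04 ± 0.947 to 21.7 ± 3.93 CPM (SD, n = 3 each) on 179 to 520 counts per library. The log2 fold change of 1.11 lay between 1.01 and 1.25 when each library was left out, a range that the choice of the gene shapes as well. The kidney level stayed below every liver library, whose lowest value was 66.2 CPM. Liver RNA in the kidney libraries, at the share given by Alb, would amount to at most 0.0511 CPM of Srd5a1.

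The genes whose kidney profile was most like that of Srd5a1 were found among 11820 genes with a mean of at least 50 counts, by the root mean square difference of centred log2 CPM over the 6 libraries. They were Ftl1, the ferritin light chain (0.205), Htatip2 (0.223) and Chsy1, a chondroitin synthase (0.227), where the median gene was at 0.623. Ftl1 was at 176 to 211 CPM on the normal diet and at 262 to 346 CPM on high salt. Likeness to a gene chosen for its diet difference picks genes with such a difference.

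Of the 7 other members in kidney, 0 passed the test (edgeR) and 0 were under an unadjusted p of 0.05. DESeq2 and limma also called 0 of these 7. Over all 15847 genes 0.0% were called by edgeR, 2.01% were under the unadjusted p, and 6.92% had no overlap between the diets. Of the 7, 0 had no overlap.

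Srd5a2 and Hsd3b2 were high in the same kidney libraries, 1 of each diet. Srd5a2 was at 14.5, 4.63 and 3.97 CPM on the normal diet and at 8.89, 14.7 and 6.001 CPM on high salt. Hsd3b2 was at 228, 103 and 106 CPM, and at 125, 174 and 146 CPM on high salt. Normal diet library 1 and high salt library 2 were the 2 highest for both genes, and the diets overlapped.

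The summed markers of the late proximal tubule were highest in the same libraries, but most single markers were not. The 7 markers, all in the kidney table, summed to 3932, 2436 and 2704 CPM on the normal diet and to 3138, 3736 and 3037 CPM on high salt, so those 2 libraries were the highest. Of the 7, 2 had this order, Acsm3 and Slc22a7. Slc7a13 (1012 CPM), Cyp7b1 (297 CPM) and Slc22a13 (35.5 CPM) were highest in high salt library 3, Atp11a had high salt library 1 in second place, and Slc5a8 had normal diet library 3 there. The early segment markers ran from 2049 to 2462 CPM, highest in high salt library 1. The part of these cells in the Srd5a2 and Hsd3b2 values was not tested.

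The diet fold changes of both genes were small against this spread. For Srd5a2 the log2 fold change was 0.35 with a 95% interval of -0.88 to 1.57, and for Hsd3b2 it was 0.02 with an interval of -0.76 to 0.80 (adjusted p = 0.9996 each, edgeR). Without normal diet library 1 they were 1.19 and 0.50, and neither passed (adjusted p = 0.238 and 0.285). Without high salt library 2, Srd5a2 was at -0.05.

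Akr1d1 followed another order. It was at 68.7, 139 and 150 CPM on the normal diet and at 59.0, 112 and 58.3 CPM on high salt. The 3 low libraries were normal diet 1, high salt 1 and high salt 3, the side of the first principal component that crosses the diets. Kap, the androgen-regulated protein of the proximal tubule, was at 19940, 28501 and 36328 CPM in those 3 and at 53463 to 55674 CPM in the others. Akr1c21 was likewise at 566, 849 and 965 CPM in those 3 and at 1480 to 1813 CPM in the others. Of the 10 kidney tubule markers, Kap alone was lower in all of those 3 than in all the others. Lrp2 (996 to 1507 against 677 to 773 CPM), Slc34a1 (1038 to 1202 against 745 to 927) and Umod (1313 to 1824 against 1014 to 1159) were higher there. Of the other androgen-responsive kidney genes, Slc22a30 was lower in those 3 (204 to 227 against 308 to 400 CPM). Adh1 was higher (213 to 223 against 109 to 188 CPM), and the rest overlapped. The immune markers summed to 34.2, 55.8 and 87.7 CPM in the 3 and to 84.3 to 174 CPM in the others. The log2 fold change of Akr1d1 between the diets was -0.64 with a 95% interval of -1.50 to 0.22. The part of this axis in the Akr1d1 values was not tested.

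**Figure D3:**
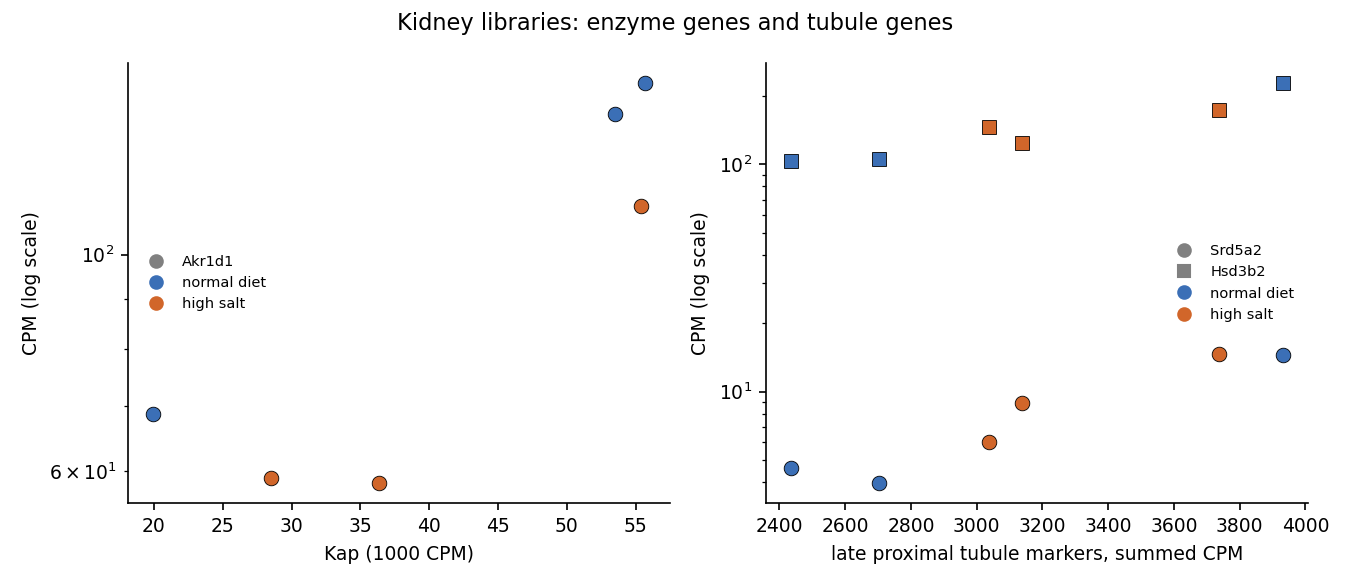
Each point is 1 of 6 kidney libraries, coloured by diet, with CPM on a log scale on the y axes. Akr1d1 (left) is low in the 3 libraries with Kap at 19940 to 36328 CPM. Of the kidney tubule markers, Kap alone is lower in all of those 3 than in all the others. Srd5a2 and Hsd3b2 (right) are highest in the 2 libraries with late proximal tubule markers summed to 3736 and 3932 CPM.

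Hsd11b1 was at 170, 202 and 248 CPM on the normal diet and at 210, 437 and 176 CPM on high salt. Only high salt library 2 was above the normal diet range, and the log2 fold change of 0.41 (95% interval -0.42 to 1.24) was -0.10 without it. Its counterpart Hsd11b2 was at 56.8, 36.2 and 25.0 CPM, and at 48.0, 36.9 and 44.2 CPM on high salt, with overlap.

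Hsd3b3 was at 29.5, 53.7 and 49.0 CPM on the normal diet and at 55.6, 37.6 and 49.6 CPM on high salt. It was lowest in normal diet library 1 and high salt library 2, where Hsd3b2 was highest. Between the diets the difference was 0.11 on the log2 scale (95% interval -0.51 to 0.74). The summed Hsd3b level of kidney averaged 479 ± 42.8 CPM with normal food and 470 ± 55.3 CPM with high salt (3 libraries each, SD).

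Hsd17b2 was at 8.19, 9.14 and 10.1 CPM, and at 6.97, 13.4 and 12.5 CPM on high salt, with the lowest and the highest values on high salt (log2 fold change 0.26, 95% interval -0.38 to 0.89). Akr1c6 was at 0.30, 2.46 and 0.775 CPM, and at 0.313, 1.01 and 0.0455 CPM on high salt, the last of these on 1 count. Its log2 fold change of -1.42 had an interval of -3.70 to 0.86, and it was -0.31 without normal diet library 2, the library with the most Alb. Adrenal markers were nearly absent from kidney: 2 of 13, Star and Akr1b7, were in the table, summing to 2.59 to 4.03 CPM, and the defining genes Cyp11a1, Cyp11b1 and Cyp21a1 had no row in it.

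**Figure D4:**
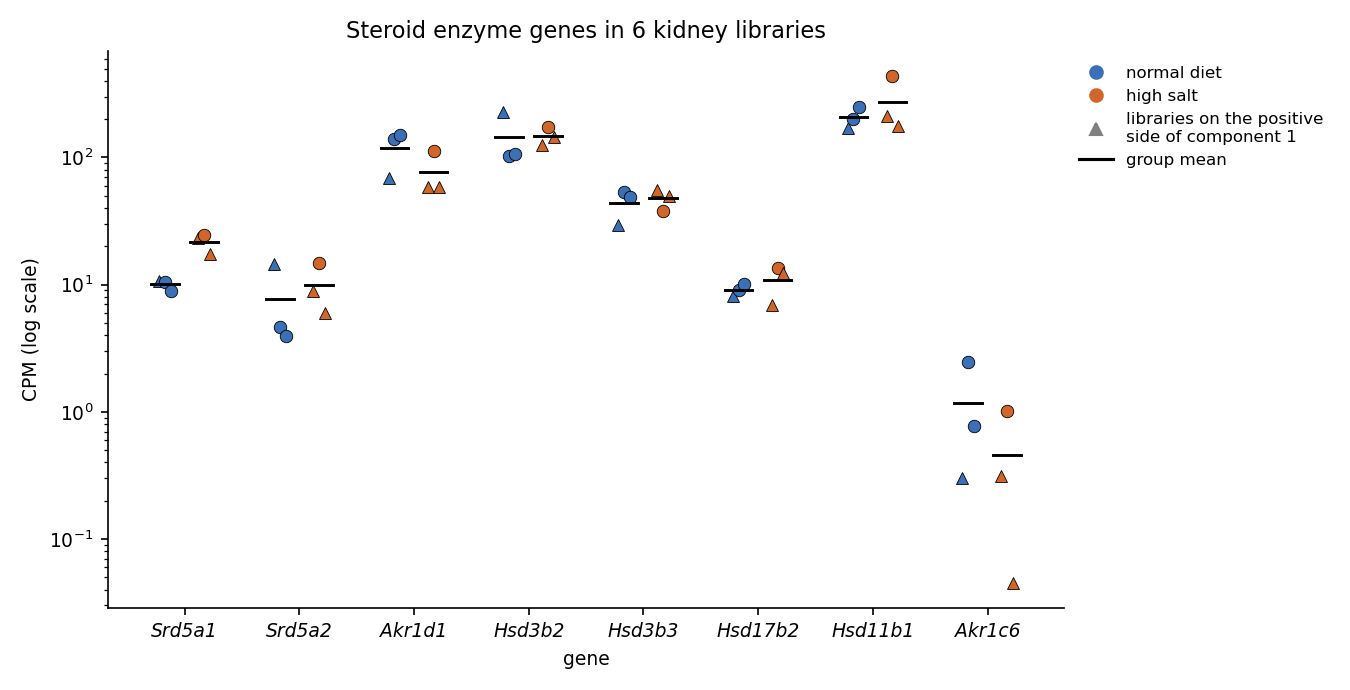
CPM (log scale) of 8 genes in the 3 normal diet and 3 high salt kidney libraries, 1 point per library with group means; triangles are library 1 of the normal diet and libraries 1 and 3 of high salt. Akr1d1 is low in the triangles (58.3 to 68.7 CPM), and Srd5a1, chosen for this, is the gene whose diets do not overlap.

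Related genes in kidney gave 0 calls in every list, in a comparison where 0.0% of all genes were called. Over all genes tested in kidney, 46.3% had fold changes above 0 and 53.7% below. Of the 12 androgen-responsive kidney genes tested, 9 had fold changes above 0, with a median log2 fold change of 0.28. The same held for 9 of 12 tested genes of the male liver list (median 0.18). It also held for 7 of 7 of the female liver list (median 0.15). Cyp4a12a (0.58 ± 0.29) and Slco1a1 (0.58 ± 0.30) had the smallest p-values of this list and Hsd17b11 (0.43 ± 0.28) of the 17β-hydroxysteroid dehydrogenases, all with an adjusted p of 0.9996 (edgeR). The 4 genes of glucocorticoid conversion all had fold changes above 0, with a median of 0.27, Slc37a4 at 0.40 ± 0.21 among them. All 5 steroid receptors tested had fold changes below 0, with a median of -0.12.

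Whether the diet effect differed between the organs was tested as an interaction in 1 fit of the 14 libraries. Of the 7 members other than Srd5a1, 0 passed (edgeR) and 0 were under an unadjusted p of 0.05, where 0.0% and 10.1% of 16633 genes were. DESeq2 called 0 of these 7. Hsd17b2 came nearest: its log2 fold change was -0.52 in liver and 0.26 in kidney, a difference of -0.79 with a 95% interval of -1.64 to 0.06 (adjusted p = 0.524, edgeR). For Srd5a2 the difference was 0.81 with an interval of -0.57 to 2.20. For Akr1d1, whose fold change was -0.61 in liver and -0.64 in kidney, it was 0.01 with an interval of -1.34 to 1.36. Cyp7b1 had a difference of -1.98 ± 0.41 that did not pass (adjusted p = 0.116, edgeR). It was called by DESeq2 (adjusted p = 0.0011).

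**Figure D5:**
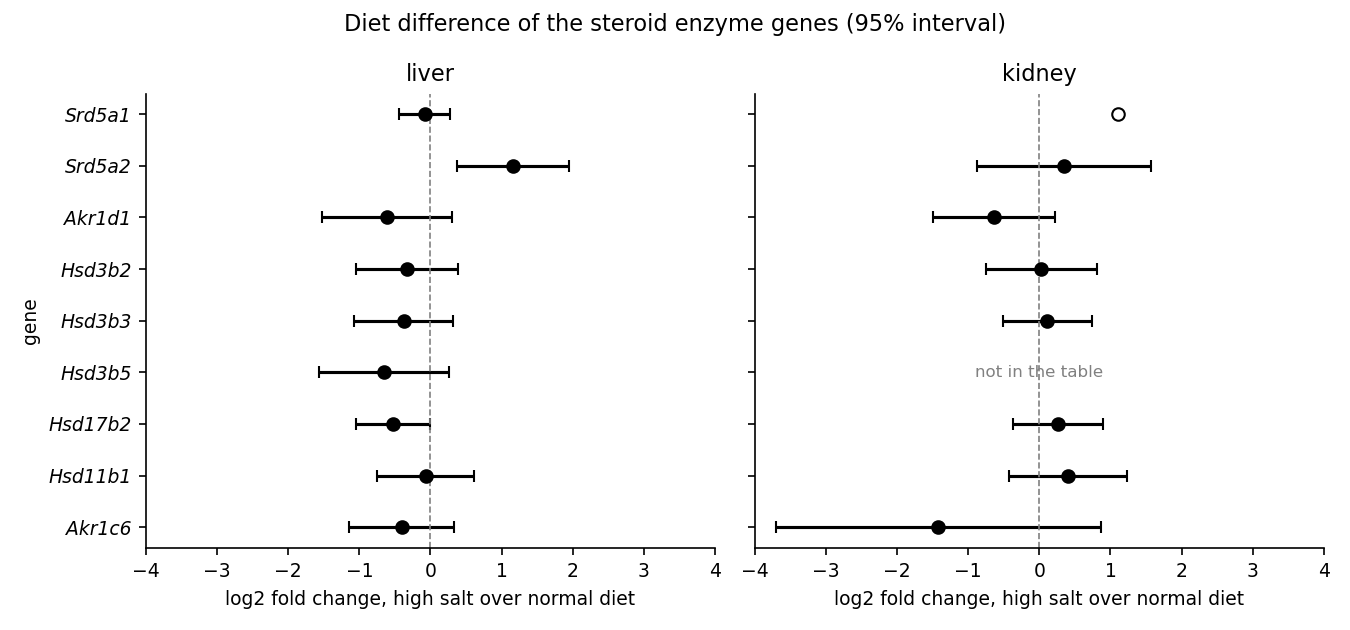
Log2 fold changes of high salt over the normal diet in liver (left) and kidney (right) from edgeR, with bars for the 95% interval; Srd5a1 in kidney is an open point without a bar because that difference chose it. The liver interval of Srd5a2 (0.38 to 1.95) leaves out 0 before adjustment, and every other bar, those of kidney included, contains it.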

How the data were processed

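Liver and kidney RNA was made into SMARTer mRNA libraries, per the labels' protocols. The submitters' processing notes name Partek 7.0, STAR 2.5.3a, DESeq2 and mm10. The authors deposited expected counts per gene (per the file headers, by Partek's E/M method) and a normalized signal per gene on a linear scale, whose method is not given in the sources used here. The liver high salt columns show the diet but match no numbered title. Every gene of the count tables totals at least 10 counts. No sample column was left out (0).

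Expected counts were rounded and tested with edgeR 4.0.16 (TMM, filterByExpr, quasi-likelihood) in R 4.3.3 over all genes. Diet was tested within each tissue; the interaction and liver against kidney on the normal diet were tested in 1 fit of the 14 libraries. Replicate numbers were not used as a block. A gene was called at a Benjamini-Hochberg adjusted p under 0.05. Intervals of 95% use the standard error and the t quantile at the test's degrees of freedom. No test is read for Srd5a1 where its kidney values enter. CPM within a tissue use TMM library sizes, and profile distances add 0.5 CPM. Positions and exon lengths come from GENCODE M21, promoters from RefSeq. DESeq2 1.42.0, RLE size factors, limma 3.58.1 on the deposited normalized signal (pseudocounts 1 and 0.1), no filter, removal of mitochondrial genes, other scalings, family sums and left-out libraries were alternatives. The fits were tested on simulated data.

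Members and lists were chosen with earlier results of these data known. Named are the members, listed genes past the threshold (or the 2 smallest p-values of a list with none), the 2 highest listed genes in each tissue, and the 3 profiles nearest to Srd5a1 and Hsd3b5. Genes named outside this rule, such as Hsd11b2, were chosen after their values were seen, and 1 listed gene is not reported here. Floors and intervals of counts cover counting error only, and a gene at 0 is known only to lie under 3 counts.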

Additional observations from a re-analysis of the deposited data

Results flagged for a closer look

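Among 94 groups of 4 liver libraries, 13 had 1 library far from the other 3 by Dixon's test, where chance gives about 4.7 if groups and libraries are independent. They are not, because the groups share libraries and HS5 and HS6 are very close to each other. Nothing is therefore read from the excess. One was a member: Hsd11b1 was at 765.4 CPM in HS7, with the 3 other high salt libraries at 487 to 491 CPM. HS7 was also the highest of its diet for Fdx1 (82.46 CPM), Cyp7b1 (189.7 CPM, still below every normal diet library), the sulfotransferase Sult2a8 (1144 CPM), the glucuronosyltransferase Ugt2b38 (20.29 CPM) and Serpina1e (2959 CPM). HS8 was the highest for Cyp2a4, at 253.9 CPM, where the others were at 0.249 to 1.29 CPM. HS5 was the highest for Tcea1-ps1 (12.84 CPM), a gene listed for its likeness to Hsd3b5.

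On the normal diet, library 3 was the lowest for Selenbp2 (854.6 CPM) and the highest for Kap (4.183 CPM) and Cyp2j13 (0.0629 CPM, others at 0). Library 2 was the highest for Slc37a4 (307.8 CPM), and library 4, which had high acute phase genes, was the highest for Fdxr (17.83 CPM). No cause was tested for any of these.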

How the results depend on the processing

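Calls in liver depended on the libraries and the tool. The 152 liver genes became 1094 with DESeq2, 260 with all 14 libraries in 1 fit, 12 with HS5 and HS6 summed, 52 without normal diet libraries 1 and 2, and 12 to 765 when 1 library was left out (39 without normal diet library 1, 41 without 2, 765 without 3, 409 without 4, 18 without HS5, 12 without HS6, 32 without HS8). Members called went from 0 to 1 with DESeq2 (Srd5a2) and ranged from 0 to 1 with 1 library left out (Akr1d1 without library 4). DESeq2 called 13 genes in kidney and 147 in the interaction, with 0 of the 7 members other than Srd5a1 in either; leaving out 1 library gave 0 to 7 interaction genes. The cause was not tested.

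Without liver libraries 1 and 2 the sign turned for Hsd3b3 (0.3617), Hsd3b5 (0.4319), Hsd11b1 (0.448), Akr1d1 (0.1443) and Akr1c6 (0.1605), and for the genes nearest to Hsd3b5, Gm16439 (0.2916), Tcea1-ps1 (0.6092) and Gm6767 (0.3353). With 1 library left out, the liver log2 fold change ran from -0.2921 to 0.1408 for Hsd11b1 and from -0.1542 to 0.001099 for Srd5a1. In kidney it ran from -0.1078 to 0.2759 for Hsd3b3, -0.1746 to 0.5039 for Hsd3b2, -0.05261 to 1.19 for Srd5a2 and -0.09916 to 0.6456 for Hsd11b1. The interaction of Akr1d1 was -0.05137 with RLE size factors and -0.05463 with DESeq2, and ran from -0.3129 to 0.3984 with 1 library left out; Srd5a2 ran from -0.02423 to 1.225, Akr1c6 from -0.0777 to 2.23 and Hsd11b1 from -0.7391 to 0.01912. Summing gene families in kidney gave -0.02857 in place of the values of Hsd3b2 and Hsd3b3, and 0.08414 in place of that of Akr1c6. Of 147 values of the members other than Srd5a1 between liver and kidney, 145 kept direction and call; the others were Akr1d1 and Hsd3b2, as given above.

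Same-numbered kidney libraries correlated at 0.5297, 0.5145 and -0.1498 in their deviations from the group means. Same-numbered liver and kidney libraries correlated at -0.2259, 0.2498 and -0.2941. With 3 libraries per group these correlations cannot settle whether same-numbered libraries share an animal. The numbers were not used as pairs in the main fits. A replicate block in kidney called 0 genes; between the tissues a replicate block over libraries 1 to 3 called 7738 genes and 5 members besides Srd5a1, the same count. No paired analysis was possible for the liver diets because the high salt columns carry no matching number. Depth limits Srd5a2 in liver (8 to 54 counts) and Akr1c6 in kidney (1 to 42 counts).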
